A study of Mus musculus with 120 samples.

Results

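The genes described here are 40 glutamate receptor and postsynaptic scaffold genes, chosen by symbol, of 49466 genes with a usable symbol in the deposited tables. They comprise 4 AMPA, 6 NMDA and 5 kainate receptor subunits, 6 metabotropic receptors, 4 Dlg scaffolds, 9 linkers of the Dlgap, Shank and Homer families, 3 kinase and calmodulin regulators (Camk2a, Camk2b, Nrgn) and 3 auxiliary AMPA receptor subunits (Cacng2, Cacng3, Cacng8). Polyadenylated RNA of cortex, thalamus and hypothalamus was sequenced in 120 libraries, 4 biological replicates in each of 30 groups of C57BL/6J mice. All mice had received an adeno-associated virus by the retro-orbital route 3 weeks earlier. The promoter in the virus, the cells it reached and the age of the mice are not given in the labels.

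The groups with a delivered regulator were wild-type mice with HDAC4CA at ZT12.5, wild-type mice with CREB at ZT12.5, Sleepy mice with HDAC4CA at ZT12.5 and at ZT0.5, and Sleepy mice with CREB at ZT12.5. HDAC4CA is a form of histone deacetylase 4, a corepressor regulated by salt-inducible kinases, and CREB is a transcription factor that binds cyclic AMP response elements. Wild-type mice with mCherry at ZT12.5 were the controls of the wild-type groups, and Sleepy mice with eGFP at ZT12.5 or ZT0.5 those of the Sleepy groups. Sleepy mice carry 1 copy of Sik3 (salt-inducible kinase 3) without exon 13, Sik3E13delta/+, and were compared with wild-type mice with eGFP at both times. ZT12.5 lies 0.5 h after lights off and ZT0.5 lies 0.5 h after lights on.

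At excitatory synapses of the forebrain, AMPA receptors carry most of the fast current, NMDA receptors admit calcium when activity coincides, kainate receptors modulate release and excitability, and metabotropic receptors act through G proteins. Cacng2, Cacng3 and Cacng8 encode transmembrane AMPA receptor regulatory proteins (TARPs), which carry AMPA receptors to the synapse and bind the Dlg scaffolds beneath the membrane. Dlgap proteins join Dlg to Shank, and Shank joins Homer, which binds the long-tailed metabotropic receptors. Scaling of this machinery down in sleep and up in wakefulness is a long-standing subject of sleep research, and Homer1 has a short activity-induced transcript that rises with wakefulness.

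Wild-type libraries with mCherry, HDAC4CA or CREB were deposited as RPKM (36 libraries) and all others as FPKM (84 libraries), both reads per length and per library size, so levels were compared only within a unit. Gene-assigned depth ran from 13.46 to 28.09 M reads (median 18.66 M). In wild-type mice with eGFP at ZT12.5, entries of nuclear and mitochondrial ribosomal RNA made up much of the summed FPKM. They held 83.76% to 85.28% in cortex, 78.73% to 80.73% in thalamus and 73.69% to 78.39% in hypothalamus. These are shares of values per length and not of reads, and their part in the results was not tested. In 27 libraries the 84 ribosomal protein genes averaged under 2.5 on the log2 scale. These were all 24 RPKM libraries of thalamus and hypothalamus and replicate 4 of each RPKM cortex group. They differed in more than ribosomal protein genes. In wild-type cortex with mCherry, Gapdh stood at 6.108 RPKM in replicate 4, against 54.87, 58.84 and 56.79 RPKM in replicates 1 to 3. Each HDAC4CA group exceeded its control in Hdac4, called in 9 of 9 comparisons, by 0.76 to 1.88 on the log2 scale, most in thalamus (9.59 ± 1.55 FPKM in Sleepy mice with HDAC4CA at ZT12.5 and 2.57 ± 0.198 FPKM with eGFP, SD, n = 4 each). Creb1 rose with CREB in 5 of 6 comparisons, by 0.91 to 2.83, and stood 0.48 higher in wild-type hypothalamus (adjusted p = 0.12). Transgene and endogenous reads of Hdac4 and Creb1 cannot be told apart at gene level. Sik3 was not called between Sleepy and wild-type mice in any region or time (12.4 FPKM in Sleepy and 13.6 FPKM in wild-type thalamus with eGFP at ZT12.5, -0.08, adjusted p = 0.69), and a gene-level value does not check the loss of 1 exon. Thalamus markers summed to 228 to 238 FPKM in thalamus and 11.8 to 12.6 FPKM in cortex of wild-type mice with eGFP, and cortex markers to 71.0 to 79.8 FPKM in cortex and 13.3 to 13.9 FPKM in thalamus.

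The genes on which the results turn most are protein-coding in the GRCm38 annotation: Cacng3 (chr7:122670492-122769393), Cacng8 (chr7:3390683-3415648), Dlg4 (chr11:70016942-70047522), Gria1 (chr11:57011387-57330244), Gria3 (chrX:41400854-41678601) and Homer1 (chr13:93299635-93405129) on the plus strand, and Cacng2 (chr15:77991748-78120028), Homer2 (chr7:81600481-81707527), Grm2 (chr9:106643095-106656082) and Grm3 (chr5:9485541-9725170) on the minus strand. Levels below are deposited values. Differences are on the log2 scale after rescaling of each library by the trimmed mean of M values. Calls rest on limma with p-values adjusted across every gene of the fit by the Benjamini-Hochberg method, at a threshold of 0.05, and "rose" and "fell" are used only of called genes. Beside the first count of called genes in each comparison stands the share of all genes called in that direction, and 1 gene of 40 is 2.5%. In bulk tissue, fewer cells of a type and less RNA per cell cannot be told apart. Nothing in the labels says that replicates came from separate cohorts or preparations, so p-values measure the spread between these 4 libraries a group.

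The regional makeup of the synapse came first. In wild-type mice with eGFP at ZT12.5, the highest level among the 40 genes in cortex was that of Nrgn, which encodes the calmodulin-binding protein neurogranin, at 324 ± 33.0 FPKM (SD, n = 4), followed by Camk2a, the alpha subunit of the calcium/calmodulin kinase, at 185 ± 20.6 FPKM, and Dlg4 at 64.4 FPKM. In thalamus the order was Camk2a (52.1 FPKM), Dlgap3 (51.4 FPKM) and Dlg4 (50.5 FPKM), which lay within 1 SD of each other. In hypothalamus it was Gria1 (52.9 FPKM), Dlg4 (48.0 FPKM) and Camk2a (34.6 FPKM). Grm8, a group III metabotropic receptor, was lowest in each region at 0.782, 0.517 and 0.917 FPKM in cortex, thalamus and hypothalamus. By deposited level, without rescaling, 20 genes were highest in cortex, 11 in thalamus and 9 in hypothalamus. Grin1 (22.3 FPKM in cortex and 22.6 FPKM in thalamus) and Shank1 (48.8 and 49.5 FPKM) count for thalamus here, but were called higher in cortex after rescaling.

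Between regions most of these genes differed, as did most genes overall. Cortex against thalamus called 26 of 40 higher and 8 lower in cortex (24.9% and 25.5% of all genes tested). Cortex against hypothalamus called 29 higher and 7 lower (28.2% and 27.5%), and thalamus against hypothalamus 20 higher and 14 lower (29.0% and 28.1%). Rescaling mattered here. Without it, the medians of all genes moved by -0.31, -0.47 and -0.15, the splits became 23 and 13, 26 and 12, and 17 and 16, and Grin1, Shank1 and Grik2 (cortex against thalamus) and Grik3 and Cacng2 (cortex against hypothalamus) turned to -0.02, -0.02, -0.07, -0.27 and -0.23. Only larger differences are therefore named.

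Nrgn stood at 301, 321, 304 and 372 FPKM in the cortex libraries, against 13.6, 15.9, 14.7 and 12.7 FPKM in thalamus, a difference of 4.82. Its hypothalamus libraries held 24.1, 24.0, 36.9 and 31.5 FPKM, above every thalamus library and far below cortex. Dlgap2 was next (7.19 ± 0.34 FPKM in cortex, 0.722 ± 0.145 FPKM in thalamus, 3.46), then the TARP gene Cacng3 (2.31) and Homer1 (2.16). Grm4, a presynaptic group III metabotropic receptor, ran the other way, with 2.22, 2.21, 1.9 and 2.33 FPKM in cortex and 13.8, 12.7, 13.5 and 13.4 FPKM in thalamus (-2.26). Its hypothalamus libraries (2.61 to 3.30 FPKM) were near cortex. Grin2d (-1.72), Shank3 (-1.15) and Grin2c (-1.01) were also lower in cortex than in thalamus. Against hypothalamus, cortex was higher most in Nrgn (3.98), Camk2a (2.90), the NMDA subunit Grin2a (2.63) and Cacng3 (2.42), and lower most in Grin2d (-1.06), Grin3a (-0.75), Grik1 (-0.64) and Grik4 (-0.56). Thalamus exceeded hypothalamus most in Shank3 (39.7 ± 2.28 and 6.79 ± 0.596 FPKM, 2.70), Grm4 (2.32), Dlgap3 (2.24) and Grin2c (2.00), and was lower most in Dlgap2 (-1.22), Gria2 (-1.17), Grik3 (-0.90) and Nrgn (-0.84). Each of these differences had an adjusted p of 0.0013 or less in limma.

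Subunit makeup differed with region as well, as shares of the summed FPKM of a family. Gria2 encodes the subunit that makes AMPA receptors impermeable to calcium. It held 27.9% of the summed AMPA subunit FPKM in cortex, 13.0% in thalamus and 18.8% in hypothalamus. Grin2c and Grin2d together with Grin2a and Grin2b make the GluN2 subunits of NMDA receptors. Grin2a held 30.2% of that sum in cortex, 14.2% in thalamus and 14.0% in hypothalamus, while Grin2c held 9.34%, 24.1% and 13.7% and Grin2d 3.77%, 16.4% and 24.0%. Among Shank genes, Shank3 made up 19.1%, 39.7% and 19.3%. The shares are a description, with no test. FPKM divides by annotated exon length, which is 15548 bases for Gria2 and 6043 bases for Gria1. A share can therefore be compared between regions of 1 set, but it is not the fraction of transcripts that a subunit makes up. Shares also differed between sets. With mCherry at ZT12.5, Grin2c held 8.1%, 15.4% and 12.1% of the RPKM sum in cortex, thalamus and hypothalamus, and Grin2d 2.85%, 10.9% and 20.2%. In thalamus with mCherry, Gria2, Grin2a and Shank3 held 13.5%, 16.6% and 36.1%. The difference between sets was not tested. In the RPKM set with mCherry, counts between regions were similar (26 higher and 10 lower of 40 for cortex against thalamus, beside 30.1% and 27.3% of all genes, 29 and 7 for cortex against hypothalamus, beside 32.2% and 29.4%, and 20 and 14 for thalamus against hypothalamus, beside 26.3% and 26.7%). There all thalamus and hypothalamus libraries and 1 of 4 cortex libraries were low in ribosomal protein genes. With a term for that property, added after the data were seen, the first 2 splits were 26 and 7, and 28 and 6.

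**Figure D1:**
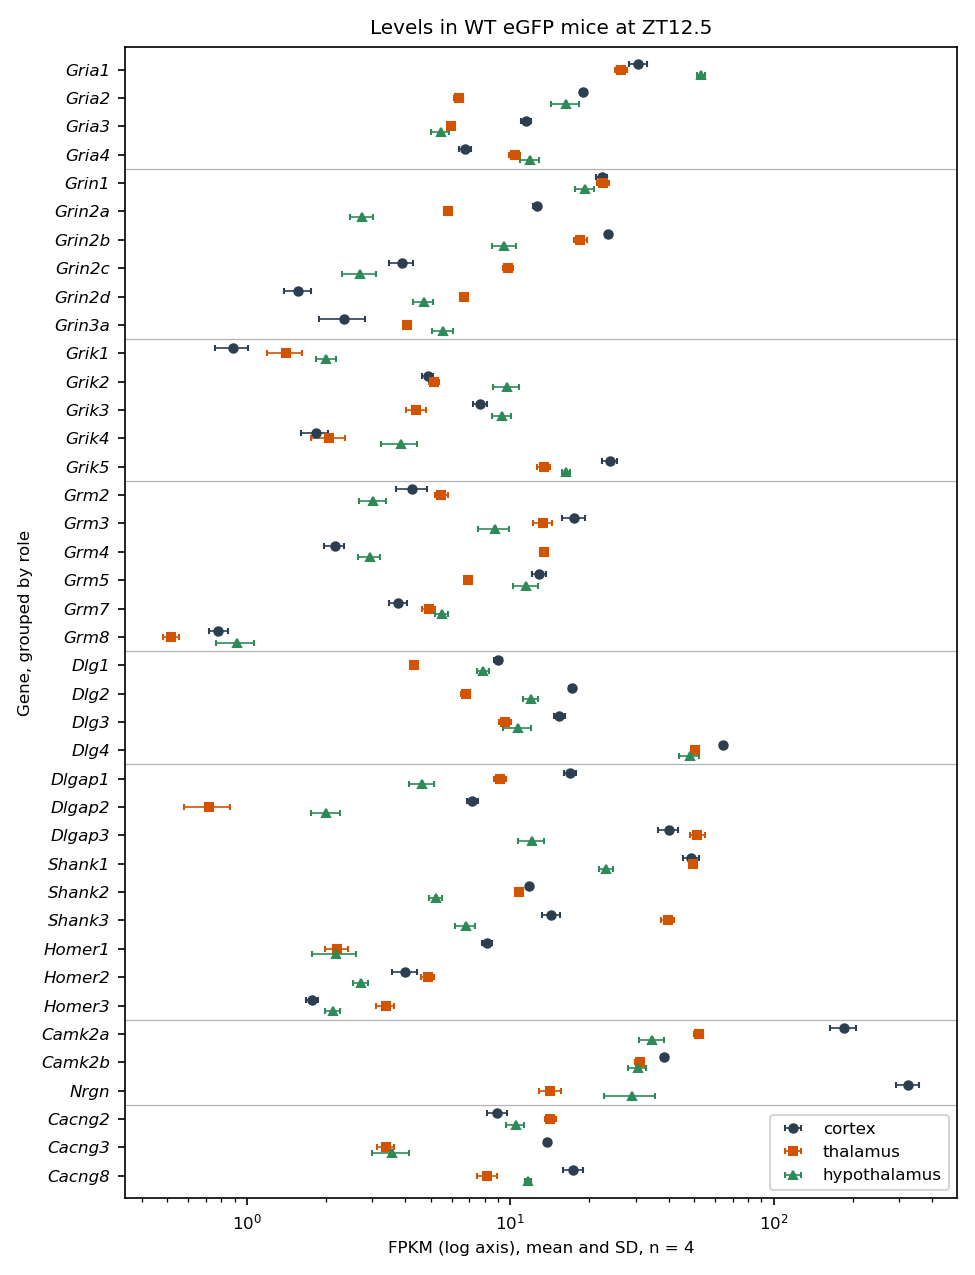
Level of each of the 40 genes in cortex, thalamus and hypothalamus of wild-type mice with eGFP at ZT12.5 (FPKM on a log axis, mean and SD of 4 libraries per region). Nrgn spans the widest range, 324 FPKM in cortex and 14.2 FPKM in thalamus, while Grm4, Grin2d, Grin2c and Shank3 are highest in thalamus.

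In thalamus 2 of the 3 TARP genes in the set rose with HDAC4CA in wild-type mice, and 3 of 3 in Sleepy mice at ZT12.5 and at ZT0.5. Cacng5, a TARP family gene outside the 40, fell in all 3 comparisons (-0.58, -0.62 and -0.79). Of the 4 Dlg scaffolds, Dlg4, the main one of mature excitatory synapses, rose in all 3 comparisons and the others were not called. Of the 9 linkers, 0 rose and 1 fell in wild-type mice, and 2 rose and 1 fell in Sleepy mice at each time, Homer2 being the one that fell in each. The AMPA subunit Gria3 also fell in all 3. In all, 4 of 40 genes rose and 4 fell in wild-type mice (4.43% and 3.08% of all genes). In Sleepy mice 9 rose and 2 fell at ZT12.5 (6.59% and 5.43%), and 9 rose and 4 fell at ZT0.5 (4.89% and 3.70%). Without rescaling the splits were 2 and 7, 3 and 1, and 3 and 8.

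Cacng3 stood at 6.22, 7.54, 6.82 and 6.55 RPKM in wild-type thalamus with HDAC4CA, against 4.61, 3.78, 4.49 and 4.90 RPKM with mCherry (difference 0.67, SE 0.08, adjusted p = 0.00094). In Sleepy mice it stood at 4.46, 4.83, 4.87 and 5.58 FPKM with HDAC4CA, against 3.42, 3.52, 3.16 and 2.47 FPKM with eGFP at ZT12.5 (0.67, SE 0.11, adjusted p = 0.0042). At ZT0.5 the values were 4.19, 5.35, 4.44 and 4.56 FPKM with HDAC4CA, against 3.02, 2.44, 4.04 and 3.58 FPKM with eGFP (0.58, SE 0.13, adjusted p = 0.026). Every HDAC4CA library was above every control library in all 3 comparisons. The call at ZT0.5 was lost without rescaling (0.51, adjusted p = 0.051). Cacng2 (stargazin), the highest in thalamus of the 3 TARP genes in the set, had 19.0, 18.6, 20.8 and 20.3 RPKM with HDAC4CA, against 18.4, 17.2, 17.4 and 16.8 RPKM with mCherry (0.24, SE 0.05, adjusted p = 0.027, and 0.064 without rescaling). In Sleepy mice Cacng2 had 17.4, 15.7, 17.0 and 18.5 FPKM with HDAC4CA, against 12.5, 13.7, 12.5 and 13.3 FPKM with eGFP at ZT12.5 (0.43, SE 0.06, adjusted p = 0.0028). At ZT0.5 it had 18.1, 18.2, 17.0 and 18.4 FPKM with HDAC4CA, against 13.6, 13.5, 13.1 and 12.8 FPKM with eGFP (0.50, SE 0.05, adjusted p = 0.00033). The Cacng2 groups did not overlap in any of the 3 comparisons. Cacng8, the third TARP gene in the set, rose in both Sleepy comparisons with overlapping groups: 9.34, 10.9, 9.79 and 10.9 FPKM with HDAC4CA, against 6.68, 9.50, 8.99 and 7.44 FPKM with eGFP at ZT12.5 (0.37, SE 0.09, adjusted p = 0.032). At ZT0.5 the HDAC4CA libraries held 8.68, 8.85, 8.38 and 8.76 FPKM and the eGFP libraries 8.61, 7.24, 7.15 and 6.45 FPKM (0.31, SE 0.08, adjusted p = 0.046).

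Dlg4 had 54.7, 60.7, 62.5 and 62.4 RPKM in wild-type thalamus with HDAC4CA, against 54.9, 50.9, 52.0 and 51.7 RPKM with mCherry (0.26, SE 0.05, adjusted p = 0.01), with 1 control library above the lowest HDAC4CA library. In Sleepy thalamus it had 56.0, 59.9, 60.9 and 64.5 FPKM with HDAC4CA, against 48.5, 51.7, 47.0 and 46.4 FPKM with eGFP at ZT12.5 (0.35, SE 0.05, adjusted p = 0.0016). ZT0.5 libraries held 53.9, 51.8, 50.7 and 50.9 FPKM with HDAC4CA, against 45.9, 46.4, 46.1 and 43.9 FPKM with eGFP (0.26, SE 0.04, adjusted p = 0.0037). Both Sleepy comparisons were free of overlap. The Dlg4 call held under every alternative run in these 3 comparisons. Homer2, a long-form Homer linker, went the other way, with 4.32, 4.42, 5.10 and 4.79 RPKM with HDAC4CA, against 7.19, 6.98, 6.44 and 6.86 RPKM with mCherry (-0.49, SE 0.07, adjusted p = 0.0025). In Sleepy mice Homer2 had 3.26, 3.44, 3.85 and 4.28 FPKM with HDAC4CA, against 4.91, 5.51, 4.57 and 5.77 FPKM with eGFP at ZT12.5 (-0.44, SE 0.08, adjusted p = 0.0061). Its libraries at ZT0.5 had 3.38, 3.57, 3.24 and 2.97 FPKM with HDAC4CA, against 4.77, 6.12, 5.48 and 5.67 FPKM with eGFP (-0.65, SE 0.09, adjusted p = 0.0016). No HDAC4CA library reached the lowest control library, and this call also held under every alternative run.

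**Figure D2:**
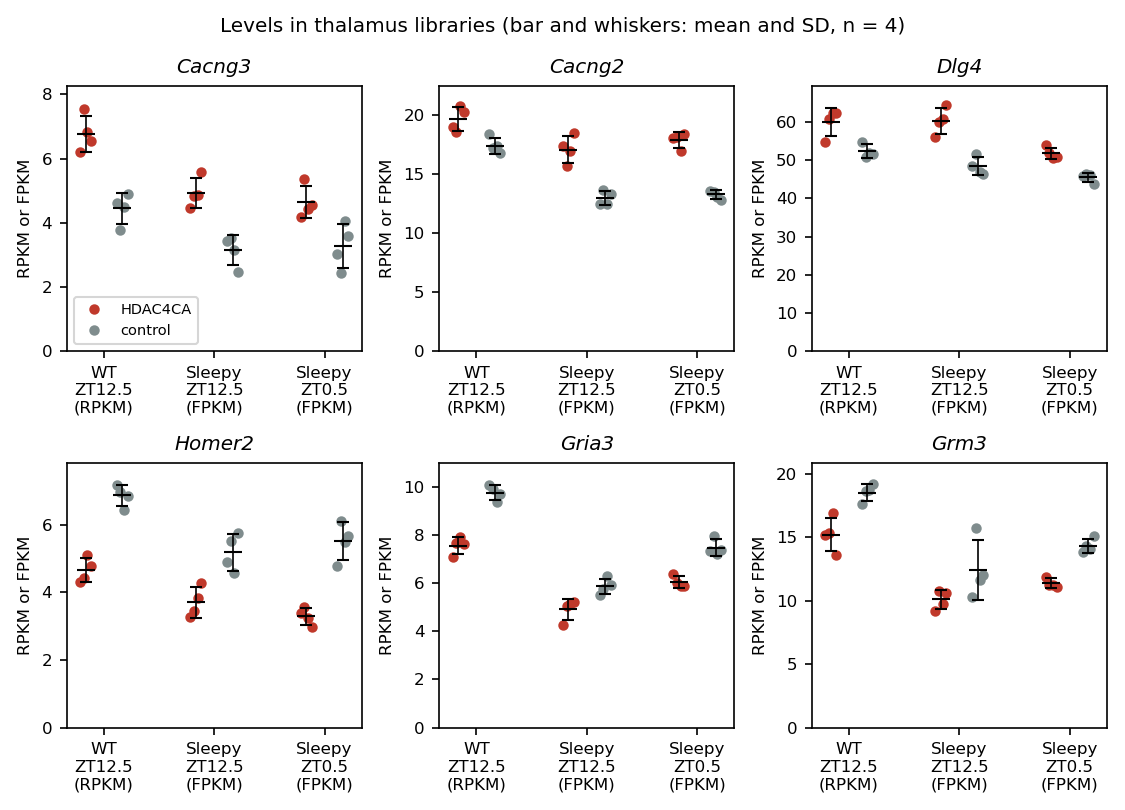
Level of Cacng3, Cacng2, Dlg4, Homer2, Gria3 and Grm3 in each thalamus library with HDAC4CA (left) and with its control vector (right), in wild-type mice at ZT12.5 (RPKM) and Sleepy mice at ZT12.5 and ZT0.5 (FPKM), points being libraries and bars mean and SD of 4. Cacng3, Cacng2 and Dlg4 lie higher with HDAC4CA and Homer2 and Gria3 lower in each of the 3 comparisons.

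Among receptors of thalamus, the AMPA subunit Gria3 fell in all 3 comparisons. Its values were 7.07, 7.65, 7.90 and 7.63 RPKM with HDAC4CA, against 10.1, 9.91, 9.36 and 9.70 RPKM with mCherry (-0.30, SE 0.05, adjusted p = 0.0055). In Sleepy mice they were 4.28, 5.05, 5.13 and 5.22 FPKM with HDAC4CA, against 5.52, 5.75, 6.29 and 5.91 FPKM with eGFP at ZT12.5 (-0.22, SE 0.06, adjusted p = 0.045, and 0.13 without rescaling). At ZT0.5 they were 6.40, 5.99, 5.90 and 5.87 FPKM with HDAC4CA, against 7.35, 7.98, 7.23 and 7.37 FPKM with eGFP (-0.23, SE 0.06, adjusted p = 0.037). The groups never overlapped. Gria1, the AMPA subunit most tied to activity-dependent insertion, rose in both Sleepy comparisons, with 27, 32.3, 28.7 and 32.6 FPKM with HDAC4CA, against 25.5, 27.6, 28.3 and 25.7 FPKM with eGFP at ZT12.5 (0.20, SE 0.05, adjusted p = 0.03). Its ZT0.5 values were 30.5, 30.0, 30.0 and 31.1 FPKM with HDAC4CA, against 26.2, 24.9, 29.5 and 26.7 FPKM with eGFP (0.25, SE 0.05, adjusted p = 0.01). The groups overlapped at ZT12.5 and not at ZT0.5, and both calls were lost without rescaling (adjusted p = 0.28 and 0.063). In wild-type thalamus Gria1 averaged 40.9 RPKM with HDAC4CA and 38.7 RPKM with mCherry (0.14, adjusted p = 0.088).

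Grm3, a group II metabotropic receptor that neurons and astrocytes both express, fell in wild-type thalamus (15.2, 15.3, 16.9 and 13.6 RPKM with HDAC4CA, against 17.6, 18.6, 18.7 and 19.2 RPKM with mCherry, -0.22, SE 0.06, adjusted p = 0.045). It fell in Sleepy mice at ZT0.5 (11.9, 11.2, 11.2 and 11.1 FPKM with HDAC4CA, against 13.8, 14.3, 14.1 and 15.1 FPKM with eGFP, -0.26, SE 0.05, adjusted p = 0.0085). At ZT12.5 in Sleepy mice it averaged 10.1 FPKM with HDAC4CA and 12.4 FPKM with eGFP, which was not called (-0.25, adjusted p = 0.13). Grin2c, an NMDA subunit with weak magnesium block, rose in both Sleepy comparisons: 10.3, 10.3, 11.3 and 13.0 FPKM with HDAC4CA, against 9.34, 9.91, 7.92 and 9.31 FPKM with eGFP at ZT12.5 (0.33, SE 0.07, adjusted p = 0.02). At ZT0.5 it had 7.79, 9.04, 7.69 and 8.20 FPKM with HDAC4CA, against 6.95, 6.95, 6.54 and 6.24 FPKM with eGFP (0.36, SE 0.07, adjusted p = 0.011), again apart. Dlgap3 rose in the same 2 comparisons, by 0.43 at ZT12.5 (53.1, 55.3, 70.8 and 73.5 FPKM with HDAC4CA, against 49.8, 46.2, 42.1 and 52.6 FPKM with eGFP) and by 0.27 at ZT0.5 (39.7 to 47.5 FPKM, against 36.3 to 40.9 FPKM). Grin1, the obligate NMDA subunit, rose at ZT12.5 (25.8 FPKM with HDAC4CA and 21.7 FPKM with eGFP, 0.28, SE 0.05, adjusted p = 0.0064). The remaining calls in thalamus were Grin2a higher and the kainate subunit Grik1 lower in wild-type mice (0.20 and -0.37), Shank2 higher in Sleepy mice at both times (0.21 and 0.20), and Grik3 higher and Camk2a lower in Sleepy mice at ZT0.5 (0.26 and -0.17).

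These 3 comparisons use separate libraries. Across the 40 genes, the differences of the wild-type comparison and of the Sleepy comparison at ZT12.5 had the same sign in 33 genes, with Pearson r of 0.934 across genes (0.692 over all genes tested, 72.4% of the same sign). Wild type and Sleepy at ZT0.5 shared the sign in 35 (r 0.88, all genes 0.55). Both Sleepy comparisons shared it in 34 (r 0.907, all genes 0.406). The points are genes of the same tissue in the same libraries, so these are descriptions.

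Leaving out single libraries changed the counts in thalamus. In wild-type mice the count of 8 ran from 4 to 8, with 5 called without mCherry replicate 2, 4 without mCherry replicate 4 and 5 without HDAC4CA replicate 4, and Gria3, Dlg4, Homer2 and Cacng3 were called each time. In Sleepy mice at ZT12.5 the count of 11 ran from 5 to 9, with 7 without eGFP replicate 1 or 4 or HDAC4CA replicate 1 or 2, 6 without HDAC4CA replicate 3 and 5 without HDAC4CA replicate 4, and Cacng2, Dlg4, Homer2, Grin1 and Cacng3 were called each time. At ZT0.5 the count of 13 ran from 7 to 10, with 7 without eGFP replicate 1 or HDAC4CA replicate 2 or 3 and 8 without HDAC4CA replicate 4, and Grm3, Cacng2, Gria1, Grin2c, Dlg4 and Homer2 were called each time.

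Markers of other cells moved in the same libraries. The 7 choroid plexus markers all fell in Sleepy thalamus at ZT12.5 (summed 8.55 to 14.7 FPKM with HDAC4CA and 568 to 1640 FPKM with eGFP), while none was called in wild-type thalamus (7.49 to 1550 RPKM with HDAC4CA and 29.9 to 1750 RPKM with mCherry) or at ZT0.5 (9.99 to 1030 FPKM and 12.5 to 1270 FPKM). All 5 blood markers fell in Sleepy thalamus at ZT12.5 (43.2 to 97.1 FPKM with HDAC4CA and 95.5 to 193 FPKM with eGFP) and 2 of 5 at ZT0.5 (33.5 to 62.1 FPKM and 74.1 to 139 FPKM). General neuronal markers rose in 3, 4 and 5 of 8 (wild type, Sleepy at ZT12.5, Sleepy at ZT0.5), with medians of 0.11, 0.20 and 0.18. At ZT0.5, 3 of 8 oligodendrocyte markers and 3 of 8 astrocyte markers fell (oligodendrocyte sum 631 to 782 FPKM with HDAC4CA and 857 to 925 FPKM with eGFP). Their part in the results was not tested.

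Promoters are shown for Dlg4, which rose in all 3 thalamus comparisons, and for Homer1, the gene of the largest difference by time of day. Of the 40 genes, 28 had a window in the RefSeq promoter table (GRCm38.p6, 42 windows of the 250 bases before a start). Capitals mark TGACG, the core to which CREB binds, searched on both strands, which also lies within the full cyclic AMP response element TGACGTCA. Where a gene had several windows, one with that core is shown.
Dlg4: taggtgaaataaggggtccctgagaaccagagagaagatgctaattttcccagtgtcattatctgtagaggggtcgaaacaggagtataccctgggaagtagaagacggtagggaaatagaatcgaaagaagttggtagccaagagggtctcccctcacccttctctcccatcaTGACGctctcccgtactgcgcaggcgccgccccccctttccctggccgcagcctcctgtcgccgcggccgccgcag
Homer1: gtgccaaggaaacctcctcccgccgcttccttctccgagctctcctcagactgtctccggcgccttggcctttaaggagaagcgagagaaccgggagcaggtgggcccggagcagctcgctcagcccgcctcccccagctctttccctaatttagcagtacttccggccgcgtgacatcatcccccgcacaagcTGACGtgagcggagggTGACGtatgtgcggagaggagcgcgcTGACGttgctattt
The windows of Dlg4 and Homer1 are chr11:70023732-70023981 and chr13:93303507-93303756 on the plus strand. The window shown held 1 core for Dlg4, which had 3 windows, and 3 cores for Homer1, which had 2 windows. The other windows of both genes held none. Over all windows of the 40 genes, 5 of 42 held a core (those of Dlg3, Dlg4, Grin1, Grm8 and Homer1), beside 17.8% of all 32851 promoter windows, and 0 of 42 held the full element, beside 1.55%. The binding site of MEF2, the factor family that HDAC4 is known to repress, was in 1 of 42 windows (Dlg1), beside 2.92%. A match is a run of letters and not a measured site. GC content was 56.8% in the window of Dlg4 and 62.4% in that of Homer1, with a median of 58.8% over the windows of these genes and 52.4% over all windows.

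In cortex HDAC4CA lowered group II metabotropic receptors and changed AMPA subunits in opposite directions. Grm2 and Grm3 fell in both comparisons at ZT12.5, Gria3 fell in all 3 cortex comparisons, and Gria1 and Cacng8 rose in both at ZT12.5. In wild-type cortex 4 of 40 genes rose and 5 fell (3.78% and 3.13% of all genes). In Sleepy cortex 5 rose and 10 fell at ZT12.5 (6.03% and 4.96%), and 0 rose and 2 fell at ZT0.5 (2.48% and 1.93%), where 20 had an unadjusted p under 0.05 in limma and 12 were called with voom on recovered reads. Without rescaling the splits were 0 and 3, 3 and 5, and 0 and 0.

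Grm2, an inhibitory autoreceptor of glutamate terminals, had the largest difference of the 40 genes in any HDAC4CA comparison. It stood at 2.13, 1.95, 2.54 and 2.29 FPKM in Sleepy cortex with HDAC4CA at ZT12.5, against 4.60, 5.29, 4.58 and 5.69 FPKM with eGFP (-1.14, SE 0.10, adjusted p = 0.00011). In wild-type cortex it stood at 2.48, 2.25, 2.90 and 1.73 RPKM with HDAC4CA, against 4.67, 4.10, 4.14 and 5.74 RPKM with mCherry (-0.90, SE 0.19, adjusted p = 0.023). All HDAC4CA libraries were below all controls. At ZT0.5 in Sleepy cortex Grm2 averaged 2.46 FPKM with HDAC4CA and 3.81 FPKM with eGFP and was not called (-0.64, SE 0.18, adjusted p = 0.079). Grm3 had 15.3, 16.9, 16.3 and 19.5 RPKM in wild-type cortex with HDAC4CA, against 21.6, 21.2, 22.6 and 27.6 RPKM with mCherry (-0.37, SE 0.06, adjusted p = 0.0066). In Sleepy cortex Grm3 had 13.9, 12.1, 13.9 and 12.6 FPKM with HDAC4CA, against 18.6, 19.9, 18.2 and 17.1 FPKM with eGFP at ZT12.5 (-0.49, SE 0.07, adjusted p = 0.0017). The ZT0.5 libraries had 16.3, 12.7, 15 and 14.4 FPKM with HDAC4CA, against 17.9, 20.3, 16.5 and 20.1 FPKM with eGFP (-0.35, SE 0.08, adjusted p = 0.029). None of the Grm3 groups overlapped.

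Gria3 had 14.4, 13.2, 12.1 and 14.5 RPKM in wild-type cortex with HDAC4CA, against 15.9, 16.3, 16.4 and 19.9 RPKM with mCherry (-0.26, SE 0.05, adjusted p = 0.021). In Sleepy cortex it had 9.94, 8.41, 7.96 and 9.31 FPKM with HDAC4CA, against 10.8, 12.4, 11.3 and 10.7 FPKM with eGFP at ZT12.5 (-0.34, SE 0.06, adjusted p = 0.0043). At ZT0.5 it had 11.4, 11.5, 9.38 and 9.88 FPKM with HDAC4CA, against 12.5, 14.9, 12.0 and 14.3 FPKM with eGFP (-0.34, SE 0.08, adjusted p = 0.034). These groups were apart, whereas Gria1 overlapped in wild-type cortex, with 45.6, 46.5, 40.1 and 53.9 RPKM with HDAC4CA, against 38.0, 39.2, 40.5 and 43.2 RPKM with mCherry (0.28, SE 0.04, adjusted p = 0.0067). In Sleepy cortex at ZT12.5 Gria1 had 35.1, 31.0, 32.7 and 33.7 FPKM with HDAC4CA, against 29.7, 27.1, 27.7 and 28.7 FPKM with eGFP, with no overlap (0.23, SE 0.05, adjusted p = 0.013). Both Gria1 calls were lost without rescaling (adjusted p = 0.34 and 0.052). As a share of the summed AMPA subunits, which needs no rescaling, Gria1 made up 49.7 ± 1.24% with HDAC4CA and 42.3 ± 0.525% with mCherry in wild-type cortex, 51.8% with HDAC4CA and 43.8% with eGFP in Sleepy cortex at ZT12.5, and 49.4% and 42.3% at ZT0.5 (SD, n = 4, no test). This share also goes up when other subunits fall, as Gria3 did, so it does not show a rise of Gria1 itself. At ZT0.5 Gria1 was not called.

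Cacng8 rose in wild-type cortex with overlap (16.6, 18.9, 16.2 and 19.6 RPKM with HDAC4CA, against 15.3, 16.1, 15.8 and 16.8 RPKM with mCherry, 0.23, SE 0.05, adjusted p = 0.035). In Sleepy cortex at ZT12.5 it rose without overlap (24.1, 22.1, 21.0 and 23.6 FPKM with HDAC4CA, against 17.5, 17.8, 19.3 and 19.7 FPKM with eGFP, 0.29, SE 0.05, adjusted p = 0.0034). Homer2 fell in wild-type cortex (3.64, 3.67, 3.93 and 4.04 RPKM with HDAC4CA, against 4.68, 5.28, 4.83 and 6.32 RPKM with mCherry, -0.37, SE 0.07, adjusted p = 0.019) and in Sleepy cortex at ZT12.5 (3.15, 2.65, 2.91 and 3.41 FPKM with HDAC4CA, against 4.09, 4.79, 4.10 and 4.57 FPKM with eGFP, -0.52, SE 0.07, adjusted p = 0.0015), apart in both. At ZT0.5 Homer2 averaged 3.57 FPKM with HDAC4CA and 4.59 FPKM with eGFP (-0.35, adjusted p = 0.051). Camk2a fell at ZT12.5 in both genotypes, with 199, 177, 177 and 197 RPKM with HDAC4CA, against 233, 225, 221 and 287 RPKM with mCherry (-0.28, SE 0.06, adjusted p = 0.023). In Sleepy cortex it had 168, 144, 139 and 169 FPKM with HDAC4CA, against 183, 205, 182 and 200 FPKM with eGFP (-0.32, SE 0.04, adjusted p = 0.0011). Both Camk2a comparisons were free of overlap.

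**Figure D3:**
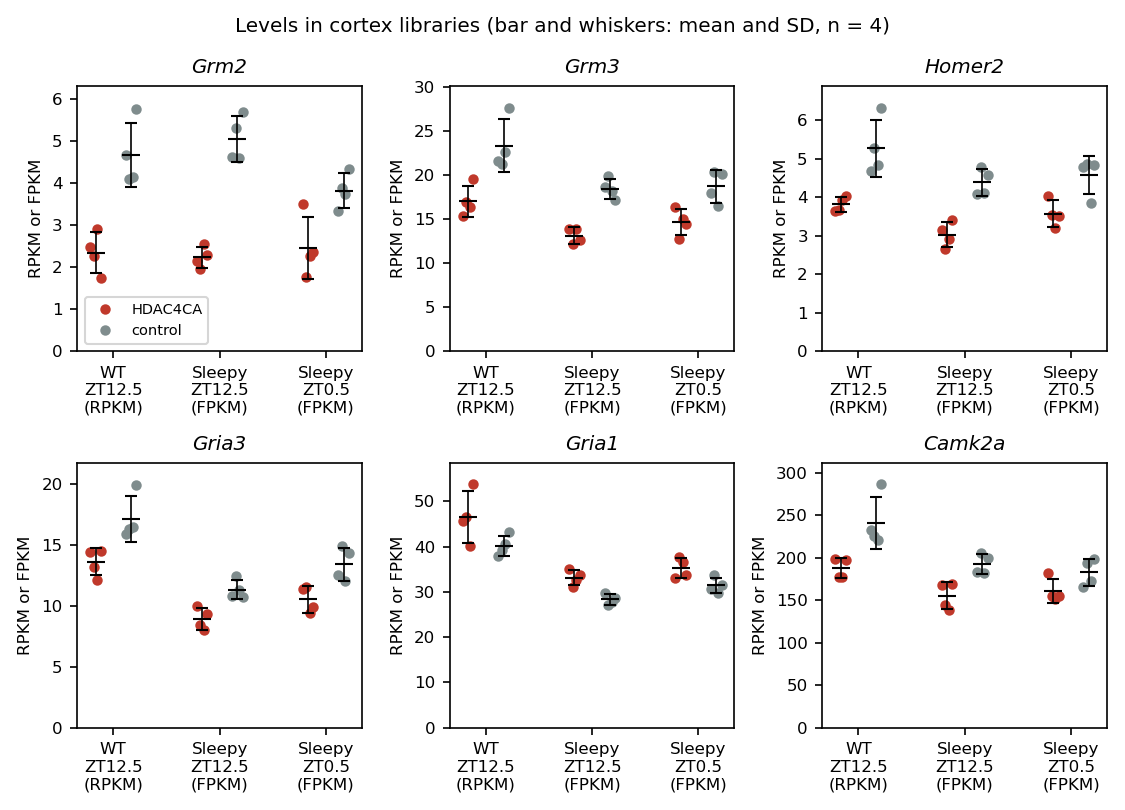
Level of Grm2, Grm3, Homer2, Gria3, Gria1 and Camk2a in each cortex library with HDAC4CA (left) and with its control vector (right), in wild-type mice at ZT12.5 (RPKM) and Sleepy mice at ZT12.5 and ZT0.5 (FPKM), points being libraries and bars mean and SD of 4. In Sleepy cortex at ZT12.5, Grm2 lies at 1.95 to 2.54 FPKM with HDAC4CA and 4.58 to 5.69 FPKM with eGFP.

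NMDA subunits in cortex were higher where called. Grin2b, which dominates NMDA receptors early in life and persists in forebrain, rose in wild-type cortex (35.1 RPKM with HDAC4CA and 31.7 RPKM with mCherry, 0.22, SE 0.05, adjusted p = 0.024, and 0.055 with the replicate block, groups overlapping) and in Sleepy cortex at ZT12.5 (25.4 FPKM with HDAC4CA and 21.0 FPKM with eGFP, 0.26, SE 0.06, adjusted p = 0.019, groups apart). Grin3a, a glycine-binding subunit that lowers calcium entry, rose in wild-type cortex (3.53 RPKM with HDAC4CA and 2.96 RPKM with mCherry, 0.31, groups overlapping). Grin1 rose in Sleepy cortex at ZT12.5 (0.19, groups overlapping). Grik5, a kainate receptor subunit, had the largest rise there, with 30.9, 30.7, 27.8 and 28.2 FPKM with HDAC4CA, against 21.7, 25.0, 21.5 and 25.2 FPKM with eGFP (0.33, SE 0.06, adjusted p = 0.0059). The other falls in Sleepy cortex at ZT12.5 were those of Grik2 (-0.28), Gria4 (-0.27), Shank1 (44.1 FPKM with HDAC4CA and 53.3 FPKM with eGFP, -0.27, adjusted p = 0.008), Dlgap1 (-0.20) and Gria2 (-0.16, adjusted p = 0.041). With Gria3, 3 of 4 AMPA subunits thus fell there and 1 rose.

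In wild-type cortex, replicate 4 of both groups was low in ribosomal protein genes. Without those 2 libraries 3 of 40 genes were called, namely Grm2 (-0.66, adjusted p = 0.029), Grm3 (-0.35, adjusted p = 0.025) and Gria1 (0.25, adjusted p = 0.039). With a term for that property 9 were called. Leaving out single libraries there gave counts of 2 to 12, with 3 without mCherry replicate 1 or 2, 4 without mCherry replicate 3, 2 without mCherry replicate 4 or HDAC4CA replicate 2, and Grm3 and Gria1 called each time. In Sleepy cortex at ZT12.5 the counts were 9 to 14, lowest without eGFP replicate 3, and Gria3, Grik5, Grm3, Gria1, Grm2, Camk2a, Homer2, Shank1 and Cacng8 were called each time. At ZT0.5 they ran from 0, without any 1 eGFP library or HDAC4CA replicate 4, through 1 without HDAC4CA replicate 2 or 3, to 8 without HDAC4CA replicate 1, and no call held each time. Cortex markers fell in 2 of 8 in wild-type cortex (summed 84.5 to 96.7 RPKM with HDAC4CA and 97.3 to 127 RPKM with mCherry), and 1 rose and 2 fell in Sleepy cortex at ZT12.5 (61.9 to 74.3 FPKM and 73.7 to 87.8 FPKM). Of 5 blood markers, 3 fell in Sleepy cortex at ZT0.5 (33.7 to 49.9 FPKM with HDAC4CA and 61.4 to 97.1 FPKM with eGFP). Their part in the results was not tested.

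In hypothalamus few genes changed with HDAC4CA. In wild-type mice 1 of 40 rose and 0 fell (0.103% and 0.0365% of all genes), which was Cacng8, with 11.7, 12.3, 12.1 and 11.2 RPKM with HDAC4CA, against 10.3, 9.42, 10.6 and 9.69 RPKM with mCherry (0.29, SE 0.04, adjusted p = 0.024, and 0.12 without rescaling). The groups did not overlap, but the call was lost without any 1 library of either group except HDAC4CA replicate 1, without which 4 genes were called. In Sleepy mice limma called 0 of 40 at ZT12.5 (0.0692% of all genes), with 7 at an unadjusted p under 0.05 and 2 called with voom, and 0 of 40 at ZT0.5 (0.0175%), with 9 and 0.

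Over all 9 HDAC4CA comparisons, 25 of 40 genes were called at least once and none in both directions. Cacng8 was called higher in 5, Gria1 higher in 4, Gria3 lower in 6, and Grm3 and Homer2 lower in 5 each. The 15 genes never called were Grin2d, Grik4, Grm4, Grm5, Grm7, Grm8, Dlg1, Dlg2, Dlg3, Dlgap2, Shank3, Homer1, Homer3, Camk2b and Nrgn. Homer1 was far from uniform in wild-type cortex, with 9.73, 17.8, 19.3 and 28.1 RPKM with HDAC4CA, against 10.6, 13.0, 11.4 and 15.2 RPKM with mCherry (0.57, SE 0.27, adjusted p = 0.26). Dlg2 has 2 entries under 1 symbol in the deposited tables, and the one of higher level was used.

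**Figure D4:**
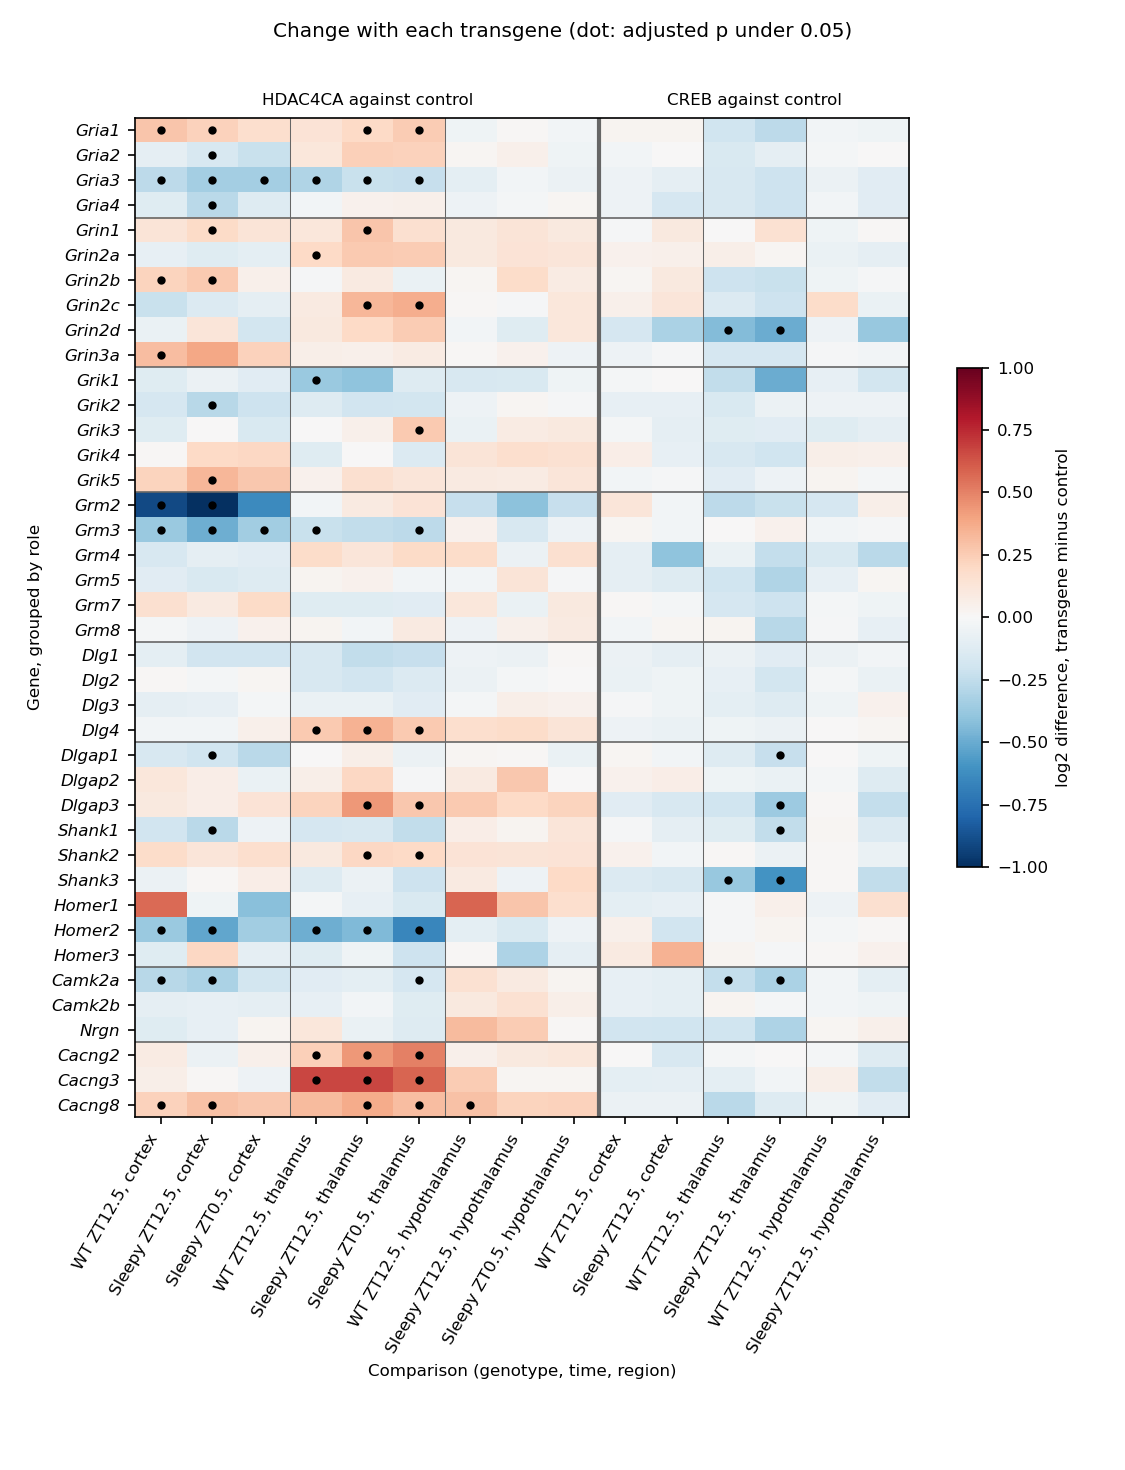
Log2 difference of each of the 40 genes, grouped by role, with HDAC4CA (9 comparisons, left) or CREB (6, right) minus its control vector, by region, genotype and time, on a colour scale from -1 to 1 that saturates at the -1.14 of Grm2 in Sleepy cortex at ZT12.5. Dots mark adjusted p under 0.05. With HDAC4CA they lie mostly in thalamus and in cortex at ZT12.5, with 2 in Sleepy cortex at ZT0.5 and 1 in hypothalamus. With CREB they lie only in thalamus.

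Whether HDAC4CA acted differently in thalamus and in cortex was tested as the difference of both effects. In Sleepy mice at ZT12.5 it was called, always with the higher value in thalamus, for 7 of 40 genes (4.15% of all genes that way and 4.79% the other), and in wild-type mice for 3 (2.12% and 1.94%). Cacng3 was called in both, at 0.65 (SE 0.14, adjusted p = 0.0075) in Sleepy mice and 0.62 (SE 0.12, adjusted p = 0.0075) in wild-type mice. In cortex Cacng3 stood at 13.4 FPKM with HDAC4CA and 13.3 FPKM with eGFP in Sleepy mice (0.01) and at 18.6 RPKM with HDAC4CA and 18.9 RPKM with mCherry in wild-type mice (0.06). Dlg4 was called in both as well, at 0.37 (SE 0.05, adjusted p = 0.00039) and 0.30 (SE 0.06, adjusted p = 0.0085), with cortex differences of -0.03 in both genotypes. Grm2, which fell in cortex, had differences of effect of 1.22 (SE 0.19, adjusted p = 0.00076) in Sleepy mice and 0.88 (SE 0.22, adjusted p = 0.033) in wild-type mice. In thalamus it averaged 4.63 FPKM with HDAC4CA and 4.49 FPKM with eGFP in Sleepy mice (0.09) and 4.36 RPKM with HDAC4CA and 4.68 RPKM with mCherry in wild-type mice (-0.03). Cacng2 (0.47, SE 0.09, adjusted p = 0.0023), Grin2c (0.45, SE 0.10, adjusted p = 0.0072), Grin2a (0.36, SE 0.09, adjusted p = 0.018) and Gria4 (0.29, SE 0.08, adjusted p = 0.024) were called in Sleepy mice. Without single libraries, 6 of the 7 Sleepy calls held each time, Gria4 not, and the wild-type count ran from 2 to 6 (6 without HDAC4CA cortex replicate 1 or 3) with Dlg4 and Cacng3 called each time. In wild-type mice all thalamus libraries and 1 of 4 cortex libraries a group were low in ribosomal protein genes, and with a term for it 4 genes were called.

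The HDAC4CA effect at ZT12.5 minus that at ZT0.5 in Sleepy mice was called for 0 of 40 genes in cortex, thalamus and hypothalamus (0% of all genes in each), with 4, 0 and 1 at an unadjusted p under 0.05 and 0 called with voom.

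With CREB, called genes were all in thalamus and all lower. In wild-type thalamus 0 of 40 rose and 3 fell (1.97% and 1.41% of all genes), and in Sleepy thalamus 0 rose and 6 fell (2.84% and 1.77%). The median difference of the 40 genes was -0.12 in wild-type and -0.18 in Sleepy thalamus, beside -0.01 over all genes in both. With voom 11 fell in wild-type thalamus, and 1 rose and 11 fell in Sleepy thalamus. Without rescaling the Sleepy split was 1 and 1.

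Shank3, a scaffold of the deep postsynaptic density, had 26.0, 21.6, 24.7 and 24.2 RPKM in wild-type thalamus with CREB, against 32.2, 34.2, 28.1 and 31.6 RPKM with mCherry (-0.38, SE 0.08, adjusted p = 0.032). In Sleepy thalamus it had 22.2, 29.7, 27.2 and 24.8 FPKM with CREB, against 38.0, 36.4, 32.5 and 41.7 FPKM with eGFP (-0.60, SE 0.08, adjusted p = 0.005). Neither pair of groups overlapped. Grin2d, an NMDA subunit, had 3.65, 3.76, 4.15 and 3.89 RPKM with CREB, against 5.57, 5.16, 5.19 and 5.08 RPKM with mCherry (-0.43, SE 0.05, adjusted p = 0.0018). In Sleepy thalamus it had 4.21, 4.82, 5.90 and 3.93 FPKM with CREB, against 6.77, 6.41, 5.75 and 6.04 FPKM with eGFP (-0.50, SE 0.10, adjusted p = 0.027), with 1 overlapping library. Camk2a had 52.1, 49.4, 52.4 and 55.3 RPKM with CREB, against 64.1, 62.3, 57.7 and 63.2 RPKM with mCherry (-0.24, SE 0.05, adjusted p = 0.038). In Sleepy thalamus it had 43.2, 49.4, 44.6 and 42.6 FPKM with CREB, against 51.5, 57.0, 49.5 and 52.9 FPKM with eGFP (-0.32, SE 0.05, adjusted p = 0.013). The Camk2a groups were apart in both genotypes, in Sleepy mice narrowly, at 49.4 FPKM with CREB and 49.5 FPKM with eGFP for the nearest libraries. Dlgap3 (39.4 FPKM with CREB and 47.7 FPKM with eGFP, -0.36, SE 0.07, adjusted p = 0.016), Shank1 (-0.25, adjusted p = 0.038) and Dlgap1 (-0.23, adjusted p = 0.024) fell in Sleepy thalamus.

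The CREB counts rested on single libraries. In wild-type thalamus they ran from 1 to 4, with 1 without mCherry replicate 1 or 4 or CREB replicate 2, 3 or 4, and Grin2d was called each time. In Sleepy thalamus they ran from 1 to 8, with 1 without eGFP replicate 1, 3 without eGFP replicate 4 and 2 without CREB replicate 1 or 4, and Shank3 was called each time. Outside thalamus limma called 0 of 40 genes with CREB: wild-type cortex (0.0497% of all genes called, 3 at an unadjusted p under 0.05), wild-type hypothalamus (0%, 1), Sleepy cortex (0.0674%, 11) and Sleepy hypothalamus (0.00574%, 3), with 0 called by voom in each.

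HDAC4CA and CREB were set against each other directly in thalamus, where 16 of 40 genes were higher with HDAC4CA and 2 lower in wild-type mice (8.73% and 5.27% of all genes), and 18 higher and 2 lower in Sleepy mice (8.12% and 6.67%). Without rescaling the splits were 7 and 4, and 9 and 2. Cacng3 (0.77), Cacng8 (0.60), Grin2d (0.53) and Dlgap3 (0.43) had the largest positive differences in wild-type mice, and Dlgap3 (0.78), Cacng3 (0.70), Grin2d (0.69) and, at 0.53 each, Grin2c and Shank3 in Sleepy mice. Homer2 and Grm3 were the genes lower with HDAC4CA than with CREB in both genotypes, by differences of -0.47 and -0.21 in wild-type mice and -0.48 and -0.30 in Sleepy mice. Without each library in turn, 11 of 18 calls held in wild-type mice and 15 of 20 in Sleepy mice. Homer2 held in both genotypes and Grm3 in neither. Shank3 and Grin2d, which fell with CREB, were not called with HDAC4CA against mCherry in wild-type thalamus (27.5 RPKM with HDAC4CA and 31.5 RPKM with mCherry for Shank3, -0.13, adjusted p = 0.40).

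The Sleepy allele itself gave no called difference. Sleepy against wild-type mice with eGFP called 0 of 40 genes in cortex, thalamus and hypothalamus at ZT12.5 and in cortex and hypothalamus at ZT0.5 (0% of all genes in each), and 0 of 40 in thalamus at ZT0.5 (0.0359%). At an unadjusted p under 0.05 there were 4, 0 and 4 at ZT12.5 and 0, 5 and 2 at ZT0.5, and voom called 0 in all 6. Of the 240 differences, 228 had a 95% interval within 0.5 of 0 on the log2 scale, and the outermost bounds were -0.62 and 0.71. The smallest p was that of Gria1 in thalamus at ZT0.5, with 26.8 ± 1.95 FPKM in Sleepy mice and 31.4 ± 1.42 FPKM in wild-type mice (-0.18, 95% interval -0.29 to -0.07, adjusted p = 0.48).

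Time of day was read in wild-type mice with eGFP, as ZT12.5 against ZT0.5. In thalamus all 4 AMPA subunits were lower at ZT12.5, just after the rest phase, while several NMDA subunits and linkers were higher. The thalamus calls of Gria1 and Gria4 did not hold without each library in turn. There 12 of 40 genes were higher and 8 lower at ZT12.5 (14.1% and 11.6% of all genes). In cortex 1 was higher and 1 lower (0.818% and 0.609%), and in hypothalamus limma called 0 (0.191%), with 4 at an unadjusted p under 0.05 and 1 called by voom.

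In cortex the lower gene was Homer1, with 7.91, 8.16, 7.93 and 8.73 FPKM at ZT12.5, against 16.9, 15.6, 15.3 and 12.5 FPKM at ZT0.5 (-0.77, SE 0.07, adjusted p = 0.0013). The groups were far apart. Sleepy mice with eGFP, not tested for time, had 8.65, 9.63, 8.48 and 9.66 FPKM at ZT12.5, against 18.7, 18.0, 13.6 and 16.3 FPKM at ZT0.5. Gene-level values do not separate the short activity-induced Homer1 transcript from the long ones. Of its 2 promoter windows, only the one printed above holds TGACG, in 3 copies. A part of these copies in the time difference was not tested. The higher gene was Grik5 (21.8, 23.7, 25.7 and 24.5 FPKM at ZT12.5, against 20.6, 18.7, 20 and 18.4 FPKM at ZT0.5, 0.39, SE 0.05, adjusted p = 0.0073), also without overlap. Both calls held without each library in turn. In thalamus Homer1 averaged 2.21 FPKM at ZT12.5 and 2.5 FPKM at ZT0.5 and was not called.

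In thalamus Gria2 had 6.57, 6.39, 6.54 and 6.04 FPKM at ZT12.5, against 7.40, 7.52, 10.2 and 9.15 FPKM at ZT0.5 (-0.35, SE 0.06, adjusted p = 0.0045). Gria3 had 6.13, 5.82, 5.98 and 5.88 FPKM at ZT12.5, against 6.65, 7.19, 8.64 and 7.98 FPKM at ZT0.5 (-0.28, SE 0.05, adjusted p = 0.0034). Gria4 and Gria1 were lower by differences of -0.20 (adjusted p = 0.018, and 0.055 without rescaling) and -0.19 (adjusted p = 0.027). None of the 4 AMPA subunits overlapped between times. Of the Dlg scaffolds, Dlg1 (4.37, 4.27, 4.38 and 4.24 FPKM at ZT12.5, against 5.34, 5.87, 6.46 and 6.70 FPKM at ZT0.5) and Dlg2 (6.95, 6.92, 6.86 and 6.40 FPKM, against 8.64, 8.90, 10.9 and 9.73 FPKM) were lower by -0.42 each (adjusted p = 0.0014 and 0.00058). Dlg4 was higher by 0.17, a call lost without rescaling (0.11, adjusted p = 0.35).

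The largest rises were those of Grin2c, with 10.4, 9.72, 9.38 and 9.79 FPKM at ZT12.5, against 5.81, 6.57, 7.59 and 7.44 FPKM at ZT0.5 (0.58, SE 0.06, adjusted p = 0.00034), and Dlgap3, with 51.0, 47.5, 55.8 and 51.4 FPKM, against 36.9, 31.6, 40 and 35.6 FPKM (0.58, SE 0.06, adjusted p = 0.00046). Grm2 followed (0.50, adjusted p = 0.0011). Shank3 had 39.6, 36.6, 42.1 and 40.4 FPKM at ZT12.5, against 30.4, 26.3, 32.4 and 29.9 FPKM at ZT0.5 (0.48, SE 0.06, adjusted p = 0.00072), and Grin2d was 0.48 higher as well. In all, 3 of 6 NMDA subunits (Grin1, Grin2c, Grin2d) and 4 of 9 linkers (Dlgap3, Shank1, Shank2, Shank3) were higher. Of the 20 calls, 17 held without each library in turn, and those of Gria1, Gria4 and Dlg4 did not. Markers of neighbouring tissue and other cells also differed between the times in thalamus. Hypothalamus markers fell in 4 of 9 (summed 35.6 to 89.2 FPKM at ZT12.5 and 91.8 to 111 FPKM at ZT0.5), cortex markers rose in 1 and fell in 4 of 6 (13.3 to 13.9 FPKM and 13.3 to 16.7 FPKM), and blood markers rose in 4 of 5 (77.8 to 158 FPKM and 60.3 to 86.3 FPKM). Oligodendrocyte markers rose in 4 and fell in 1 of 8 (859 to 897 FPKM and 747 to 949 FPKM), and endothelial markers rose in 1 and fell in 3 of 6 (23.1 to 28.3 FPKM and 33.8 to 40.3 FPKM). Gria2 and Nrgn, among others, are lower in thalamus than in hypothalamus (above), and the part of neighbouring tissue in the time differences was not tested.

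**Figure D5:**
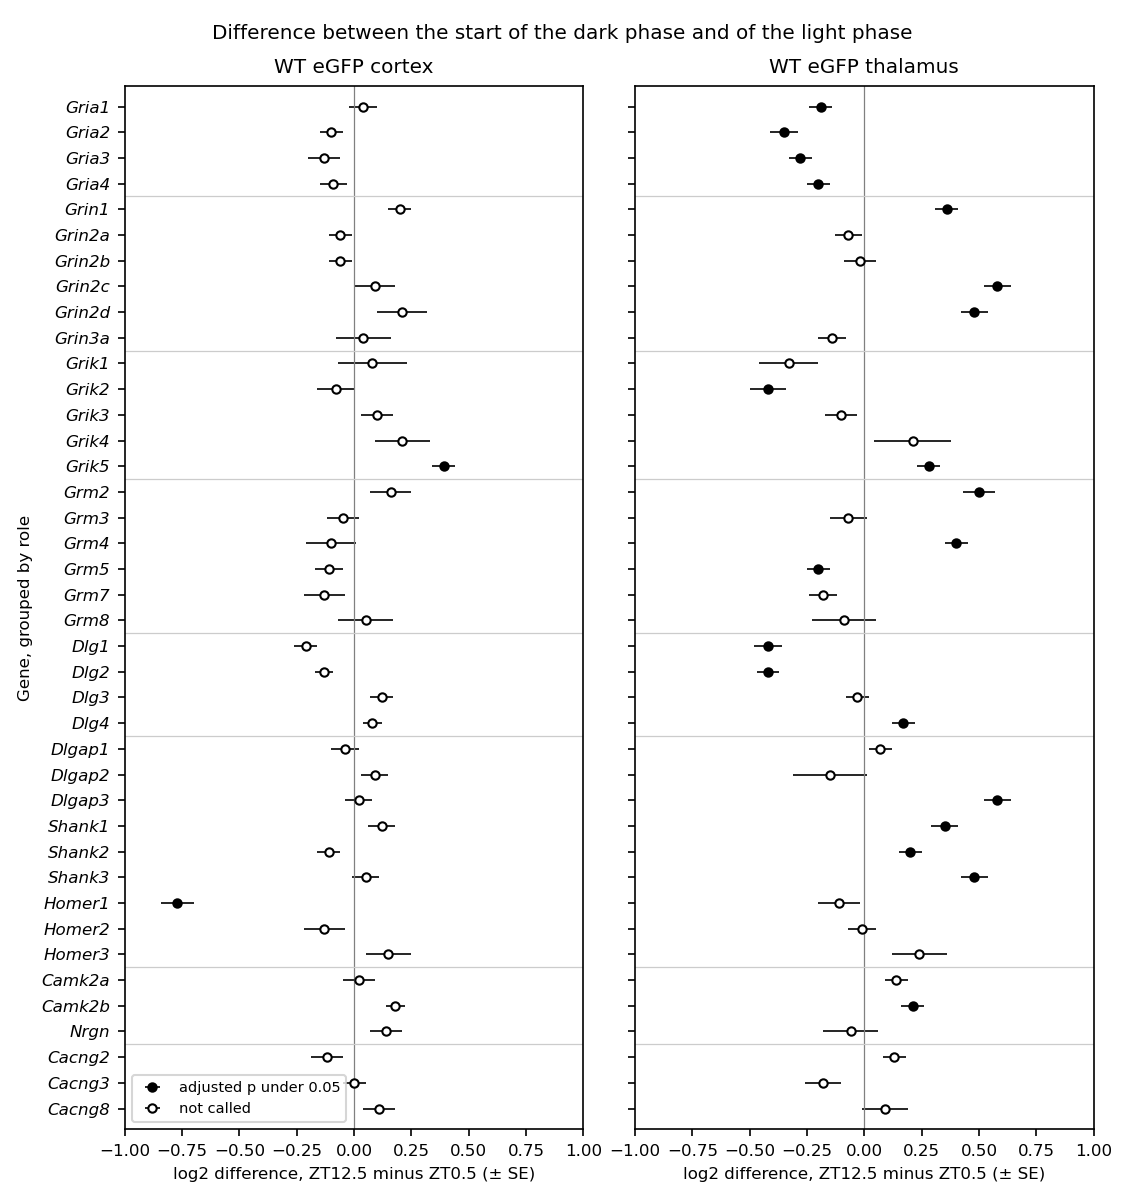
Log2 difference between ZT12.5 and ZT0.5 (with SE) of each of the 40 genes in cortex and thalamus of wild-type mice with eGFP (4 libraries per time), filled points having an adjusted p under 0.05. Homer1 is the lowest point in cortex at -0.77, and in thalamus Grin2c and Dlgap3 are the highest at 0.58.

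A list of 49 other genes of the glutamatergic synapse, of which 48 were tested (Grm6 stood near 0), gave context. With HDAC4CA, 5 rose and 5 fell in wild-type thalamus (4.43% and 3.08% of all genes), 10 and 5 in Sleepy thalamus at ZT12.5 (6.59% and 5.43%), and 7 and 6 at ZT0.5 (4.89% and 3.70%). Lrrc7 (densin), a Camk2a-binding scaffold, fell most at ZT0.5, with 5.29 FPKM with HDAC4CA and 10.5 FPKM with eGFP (-0.91), and by -0.55 and -0.63 in the other 2. Cacng5, the TARP family gene named above, fell by -0.58 in wild-type thalamus, -0.62 in Sleepy thalamus at ZT12.5 (4.25 FPKM with HDAC4CA and 6.71 FPKM with eGFP) and -0.79 at ZT0.5 (3.94 and 7.23 FPKM). The synapse organiser Lrrtm1 fell by -0.65, -0.63 and -0.84. In cortex 5 rose and 4 fell in wild-type mice (3.78% and 3.13%), 8 and 11 in Sleepy mice at ZT12.5 (6.03% and 4.96%), and 4 and 2 at ZT0.5 (2.48% and 1.93%). Camk2n1, an inhibitor of the Camk2 kinases, fell by -0.41 in wild-type cortex and -0.48 in Sleepy cortex at ZT12.5, and rose in thalamus by 0.40 in wild-type mice, 0.44 in Sleepy mice at ZT12.5 and 0.45 at ZT0.5 (98.5 FPKM with HDAC4CA and 75.9 FPKM with eGFP). Slc17a7, the vesicular glutamate transporter of cortical neurons, rose by 0.50 in wild-type cortex, 0.45 in Sleepy cortex at ZT12.5 and 0.50 at ZT0.5 (142 FPKM with HDAC4CA and 101 FPKM with eGFP). It rose in thalamus too, by 0.44, 0.58 and 0.45 in the same order of groups. In hypothalamus 0 were called in wild-type mice and in Sleepy mice at ZT0.5, and Baiap2 rose in Sleepy mice at ZT12.5 (0.61). With CREB, 5 fell in wild-type thalamus and 3 in Sleepy thalamus (1.41% and 1.77% of all genes), Frrs1l, a protein of AMPA receptor assembly, in both and Slc17a7 (-0.33) in wild-type thalamus.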

How the data were processed

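The submitters' processing notes name CASAVA 1.9, STAR 2.6.1a, featureCounts and edgeR 3.28.1 as the authors' tools, with build GRCm38. Annotation release and strand setting: not given in the sources used here. Reads of overlapping or antisense genes therefore cannot be separated. The authors deposited RPKM (36 libraries) and FPKM (84 libraries) for 49585 gene entries a library, per the file headers. Dropping 26 date-like symbols and all but 1 entry of 93 repeated ones left 49466 genes.

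Reads were recovered from value times exon length (GENCODE M21, 95.2% of genes). Of values worth up to 20 reads, 94.3% to 95.8% a library lay within 0.1 of a whole read. Libraries were rescaled on these reads with trimmed means of M values (trims 0.3 and 0.05) and tested as log2(value + 0.1), which understates changes of low genes, with limma 3.58.1 (R 4.3.3, statmod 1.5.0, trend and robust variances) for genes averaging 10 or more recovered reads (1 or more in value where no exon length was known). All 40 genes passed in every comparison. P-values were adjusted over all genes tested. The planned tests assumed counts, which the files do not hold, so limma on log values was used. The test code was checked on simulated data.

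Each fit held the 2 groups compared in 1 region (4 for differences of effect). Alternatives were no rescaling, a pseudocount of 1, no filter, voom on recovered reads, the replicate number as a block, each library left out, and, in cortex, library kind. Replicate numbers paired libraries in wild-type cortex, where same-numbered deviations correlated by 0.13 to 0.647 (HDAC4CA) and 0.13 to 0.708 (CREB), with replicate 4 carrying the low ribosomal kind in each group. No 2 libraries were duplicates. Named genes were those called (the 4 largest each way above 8 calls, and a few others chosen after their values were seen), with every library's value for genes called in at least 4 HDAC4CA comparisons. The members, lists and tests were chosen with earlier results of these data known. A few items are not reported here.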

Additional observations from a re-analysis of the deposited data

Results flagged for a closer look

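Of 88 sets of 4 libraries checked for 1 library far from the other 3, 2 had such a library, and chance gives about 1 in 20. Gria3 in wild-type cortex with mCherry had 1 library at 19.9 RPKM and the others at 15.9 to 16.4 RPKM. Grm3 in Sleepy thalamus with HDAC4CA at ZT0.5 had 1 library at 11.9 FPKM and the others at 11.1 to 11.2 FPKM.

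The HDAC4CA effect differed between thalamus and cortex, by a test of the difference of both effects (thalamus minus cortex), for 3 genes in wild-type mice and 7 in Sleepy mice at ZT12.5. In wild-type mice these were Grm2 (0.88), Cacng3 (0.62) and Dlg4 (0.30). In Sleepy mice they were Grm2 (1.22), Cacng3 (0.65), Cacng2 (0.47), Grin2c (0.45), Dlg4 (0.37), Grin2a (0.36) and Gria4 (0.29).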

How the results depend on the processing

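Of 59 member calls with HDAC4CA, a pseudocount of 1 and voom on recovered reads kept all 59, the replicate block 39, no filter on low values 33 and no rescaling 27. Of 9 CREB calls these kept 9, 9, 6, 5 and 4, and of 22 time calls 22, 22, 21, 21 and 17. No call with HDAC4CA, with CREB, by time or between effects changed sign under any alternative run. Lost calls had a cause that was not tested.

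Counts of members called moved by more than 1.5 times as follows. Without rescaling, HDAC4CA gave 3 in wild-type cortex, 0 in wild-type hypothalamus, 8 in Sleepy cortex and 4 in Sleepy thalamus at ZT12.5 and 0 in Sleepy cortex at ZT0.5, CREB gave 2 in Sleepy thalamus, and HDAC4CA against CREB gave 11 in each genotype. Without a filter, HDAC4CA gave 5 in wild-type cortex, 4 in wild-type thalamus, 0 in wild-type hypothalamus, 5 in Sleepy thalamus at ZT12.5, 0 in Sleepy cortex and 8 in Sleepy thalamus at ZT0.5, and CREB 1 in wild-type thalamus. Voom gave 2 in wild-type hypothalamus, 2 in Sleepy hypothalamus at ZT12.5 and 12 in Sleepy cortex at ZT0.5 with HDAC4CA, 11 in wild-type and 12 in Sleepy thalamus with CREB, and 5 in cortex and 1 in hypothalamus by time. With the replicate block, HDAC4CA gave 5 in wild-type thalamus, 0 in wild-type hypothalamus, 7 in Sleepy thalamus at ZT12.5, 0 in Sleepy cortex and 7 in Sleepy thalamus at ZT0.5. Outside wild-type cortex the samples shared only a number. In wild-type cortex, where same-numbered libraries correlated, the block lost Grin2b and left 8 called. Without both libraries low in ribosomal protein genes, wild-type cortex gave 3.

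With each library left out in turn, HDAC4CA gave 2 to 12 in wild-type cortex, 4 to 8 in wild-type thalamus, 0 to 4 in wild-type hypothalamus, 9 to 14 in Sleepy cortex and 5 to 9 in Sleepy thalamus at ZT12.5, and 0 to 8 in Sleepy cortex and 7 to 10 in Sleepy thalamus at ZT0.5. CREB gave 1 to 4 in wild-type and 1 to 8 in Sleepy thalamus, and the difference of effects in wild-type mice 2 to 6.

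Signs changed without rescaling between regions, where the median of all genes moved by -0.31, -0.47 and -0.15 with eGFP and by -0.21, -0.22 and -0.03 with mCherry: Grin1 -0.02, Shank1 -0.02 and Grik2 -0.07 (cortex against thalamus, eGFP), Grik3 -0.27 and Cacng2 -0.23 (cortex against hypothalamus, eGFP), and Homer3 -0.03 and Cacng2 0.00 (cortex against hypothalamus, mCherry). Genes below 1 FPKM, such as Grm8, rest on few reads.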
